A study of Homo sapiens with 8 samples.

Results

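A set of 8 genes of the cornified envelope and the late keratinocyte programme, outside the SPRR family, was followed in a keratinocyte line: IVL, TGM1, CDSN, SBSN, CNFN, CALML5, FLG and LOR. They were taken from the count table by symbol, with no threshold on their values, and are 8 of its 28518 gene rows. Of the 8 genes, 4 had enough reads to be tested (TGM1, FLG, IVL and SBSN). The other 4 (CDSN, CNFN, CALML5 and LOR) did not pass the filter on low counts and are described by their counts in each library.

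The cornified envelope is the protein shell that replaces the plasma membrane of a keratinocyte at the end of its differentiation. Precursor proteins gather under the membrane, transglutaminases join them through bonds between glutamine and lysine side chains, and lipids are attached to the outer face. The genes are switched on in the spinous and granular layers of the epidermis, and proliferating basal cells express little of them.

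The cells were HaCaT, an immortalised human keratinocyte line, and in all groups the endogenous CARD14 had been knocked out. CARD14 is a scaffold protein that signals to NF-kB in epithelial cells. Each group received a plasmid encoding CARD14, then the self-cleaving peptide T2A, then eGFP: wild type (WT) CARD14 or the hypomorphic variant R820W, N737H or I593T. Cells were transfected with 9 ug of plasmid in low-glucose medium with serum, and GFP-positive cells were sorted 24 h later, so every library holds cells that carried a CARD14 plasmid. The study asked which pathways differ between the variants and WT. There are 2 libraries per group, titled A and B, 8 in all. The study's design text mentions independent experiments, and no label says which letter belongs to which of them. The p-values therefore measure only the spread between these libraries, which may be technical. The labels do not say whether the knockout line is 1 clone or which promoter drives the plasmid, and no library without a CARD14 plasmid was analysed here.

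Total counts ranged from 17892608 to 24629860 per library, and 17836 to 21059 genes had a count, the highest number being in N737H library B. As a check of the plasmid, CARD14 RNA in WT A and WT B was at 1126 and 977 CPM (CPM, read counts scaled to a common normalised library size). With R820W CARD14 was at 1189 and 1409 CPM, 444 and 1005 with N737H, and 499 and 1394 with I593T, being higher in B in each variant group. The cells carried keratinocyte markers: 10 of 10 were above 1 CPM, and their summed level ran from 5118 to 7290 CPM in the A libraries and from 4346 to 6873 in the B libraries. All 7 fibroblast markers and all 5 kidney or endothelial markers were below 1 CPM, as were 5 of 6 leukocyte markers, CD68 at 63.7 CPM being the exception, and 3 of 6 melanocyte markers. The first principal component, with 33.3% of the variance, set the 4 A libraries apart from the 4 B libraries.

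Promoter sequence shows a motif that several of these genes share upstream of the start site, and 3 of them are printed here. RefSeq promoters (GRCh38.p14) were matched for 7 of the 8 genes, all but TGM1. The motif TGANTCA, the binding site of AP-1 factors and its own reverse complement, was searched in the 250 bases before the start. Involucrin (IVL), a glutamine-rich scaffold laid down early in the envelope, filaggrin (FLG), which bundles keratin filaments and is later broken down into moisturising amino acids, and loricrin (LOR), a glycine-rich protein of the mature envelope, each held 1 match, in capitals in the following 250-base stretches, written 5′ to 3′ on the gene's strand, which end just before the start site.
IVL, chr1:152908296-152908545, plus strand: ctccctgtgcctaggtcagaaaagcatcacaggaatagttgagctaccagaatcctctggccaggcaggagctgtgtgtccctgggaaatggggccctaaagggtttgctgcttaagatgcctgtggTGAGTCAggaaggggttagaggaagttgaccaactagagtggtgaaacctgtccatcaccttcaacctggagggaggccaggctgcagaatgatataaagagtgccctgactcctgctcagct
FLG, chr1:152325240-152325489, minus strand: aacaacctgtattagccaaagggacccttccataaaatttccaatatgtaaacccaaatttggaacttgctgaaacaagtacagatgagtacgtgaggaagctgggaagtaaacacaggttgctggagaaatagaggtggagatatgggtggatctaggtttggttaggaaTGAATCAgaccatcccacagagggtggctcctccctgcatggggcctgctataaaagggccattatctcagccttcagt
LOR, chr1:153259437-153259686, plus strand: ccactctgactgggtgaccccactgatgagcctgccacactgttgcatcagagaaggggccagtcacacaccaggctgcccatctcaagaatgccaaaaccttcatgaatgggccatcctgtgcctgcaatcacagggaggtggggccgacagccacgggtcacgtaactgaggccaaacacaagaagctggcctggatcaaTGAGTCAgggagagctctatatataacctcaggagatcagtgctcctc
The match lay 123 to 117 bases upstream of the start in IVL, 79 to 73 bases in FLG and 48 to 42 bases in LOR. SBSN held 2 matches, at 173 to 167 and at 71 to 65 bases upstream, and CDSN, CALML5 and CNFN held none in this window. The motif occurs in 2308 of 35116 promoters of the same length (6.57%). A match describes letters only, and the libraries hold no measurement of binding.

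TGM1, which encodes the membrane-bound transglutaminase that joins the precursors to each other, had the most counts of the 8 genes. In the A libraries it stood at 6.09 CPM with WT, 10.6 with R820W, 6.64 with N737H and 6.88 with I593T. In the B libraries it stood at 26.4 CPM with WT, 23.2 with R820W, 9.34 with N737H and 8.55 with I593T. WT B and R820W B were therefore the high libraries, and the other 6 lay between 6.09 and 10.6 CPM. The counts behind these values ran from 133 in WT A to 548 in WT B.

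FLG was at 5.81 and 4.97 CPM in WT A and WT B. With R820W it was at 3.67 and 5.76 CPM. It was at 5.57 and 8.26 CPM with N737H and at 5.39 and 7.56 with I593T. The range was 2.25-fold, from R820W A to N737H B, against 4.34-fold for TGM1. FLG shares 704 exonic bases with FLG-AS1 on the opposite strand in GENCODE v29 and has near relatives in FLG2 and HRNR, and no source used here gives the strand setting of the counting, so FLG-AS1 reads and FLG reads cannot be told apart.

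IVL was low in every library. It stood at 0.641 and 1.30 CPM in WT A and B, 1.32 and 1.09 with R820W, 1.11 and 1.62 with N737H, and 1.13 and 1.63 with I593T. The counts behind these levels were 14 to 33 per library, with WT A lowest. Suprabasin (SBSN), a secreted protein of the suprabasal layers and a transglutaminase substrate, was at 1.24 and 0.772 CPM with WT, 1.52 and 1.09 with R820W, 0.630 and 0.590 with N737H, and 1.21 and 1.04 with I593T. Both N737H values of SBSN lay below all 6 others, as they did for 2.18% of the 22949 genes with a count. They rest on 13 and 12 counts, and their exact Poisson 95% intervals (0.335 to 1.08 and 0.305 to 1.03 CPM) overlap that of WT B (0.441 to 1.25 CPM).

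**Figure D1:**
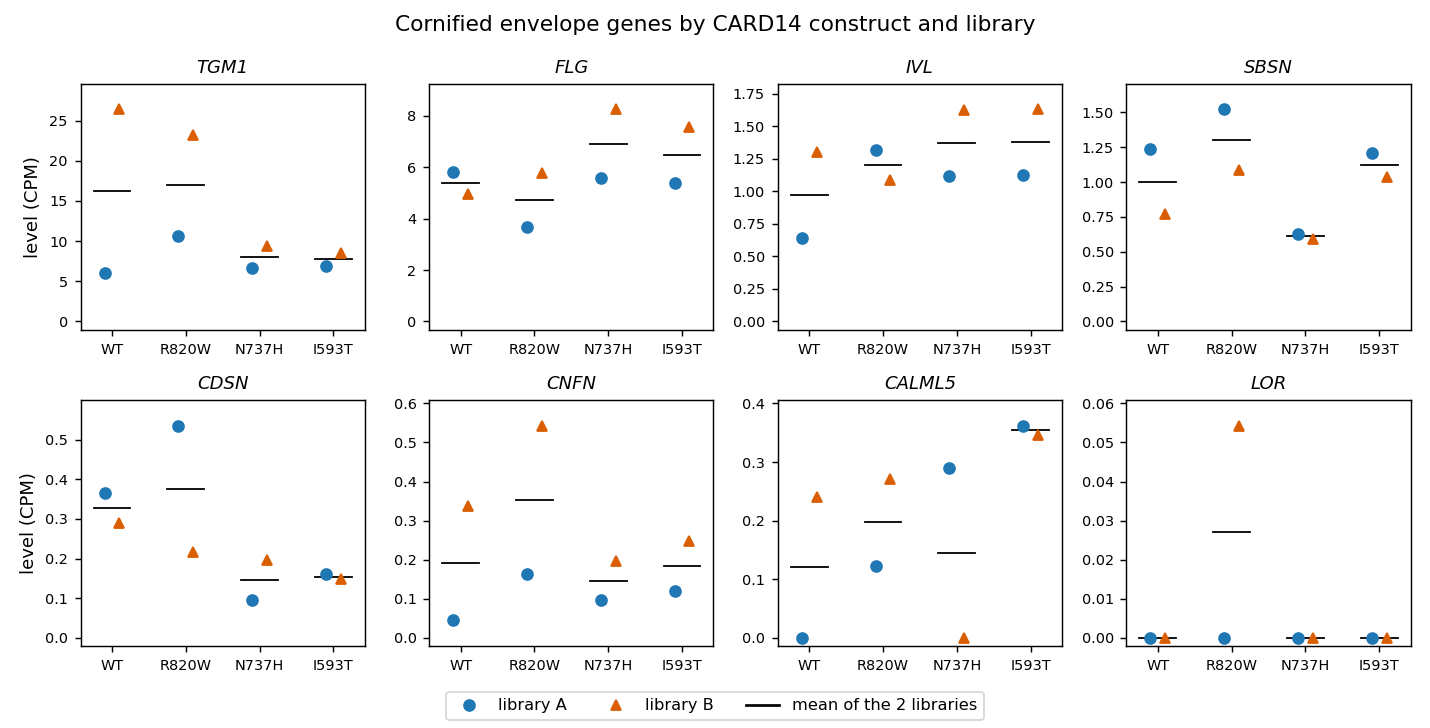
Level of each of the 8 genes in CPM (vertical axes, one scale per gene) by CARD14 construct (horizontal axis). Blue circles are A libraries, orange triangles B libraries, and bars the mean of the 2 libraries. TGM1 is high in WT B and R820W B (26.4 and 23.2 CPM), and LOR is above 0 in 1 library only.

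The other 4 genes were near the limit of detection. Corneodesmosin (CDSN), an adhesion protein of the junctions that hold cornified cells together, had 8 and 6 counts with WT (A and B), 13 and 4 with R820W, 2 and 4 with N737H, and 4 and 3 with I593T. CDSN lies within PSORS1C1, on the opposite strand, with 0 shared exonic bases in GENCODE v29. The highest value (13 counts, exact Poisson 95% interval 6.92 to 22.2) and the lowest (2 counts, 0.242 to 7.22) had overlapping intervals. Cornifelin (CNFN), an envelope component, had 1 and 7 counts with WT, 4 and 10 with R820W, 2 and 4 with N737H, and 3 and 5 with I593T. Its counts were higher in B than in A in each of the 4 groups.

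CALML5, a calmodulin-like calcium-binding protein of differentiating keratinocytes, had 0 and 5 counts with WT, 3 and 5 with R820W, 6 and 0 with N737H, and 9 and 7 with I593T. A count of 0 allows up to 0.137 CPM in WT A and 0.148 CPM in N737H B (3 counts, counting error only), so absence cannot be stated. LOR had 1 count in R820W B (exact Poisson 95% interval 0.0253 to 5.57 counts) and 0 in the other 7 libraries. The allowance of 3 counts corresponds to 0.121 to 0.163 CPM across the libraries.

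**Figure D2:**
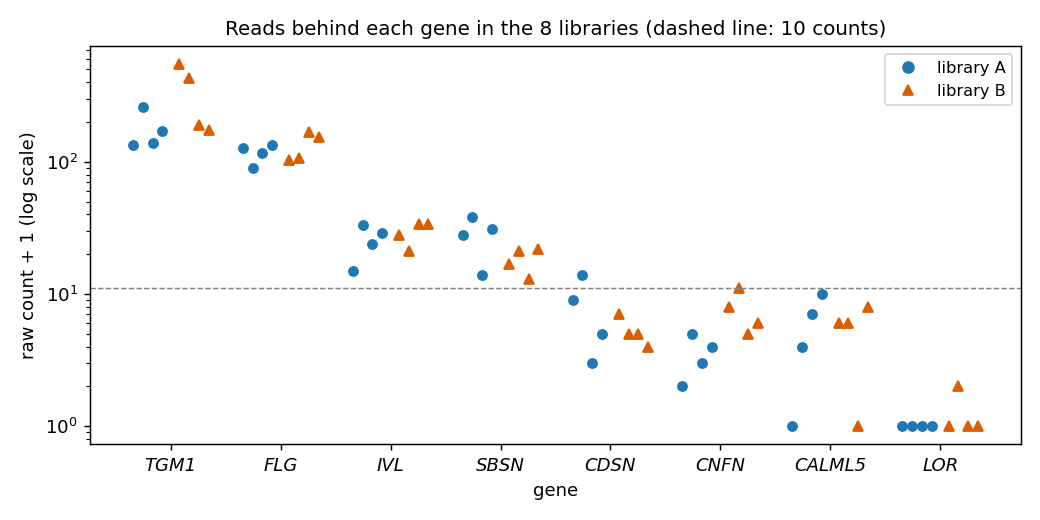
Raw read count plus 1 (vertical axis, log scale) of the 8 genes in each of the 8 libraries; the dashed line marks 10 counts. TGM1, FLG, IVL and SBSN exceed 10 counts in all 8 libraries, CDSN and CNFN reach 10 in 1 library each, and CALML5 and LOR reach it in none.

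The 8 genes together gave 3535 counts, of which TGM1 gave 57.7% and FLG 28.1%, before gene length is considered. Per kilobase of merged exons in GENCODE v29, the mean level over the 8 libraries was 4.40 ± 2.87 CPM per kb for TGM1 (SD, n = 8), 0.571 ± 0.149 for IVL, 0.509 ± 0.163 for SBSN and 0.461 ± 0.113 for FLG. FLG, whose exons span 12.747 kb, had a mean per kilobase a little below those of IVL and SBSN, with overlapping ranges over the libraries. CNFN followed at 0.363 ± 0.264 CPM per kb, CALML5 at 0.238 ± 0.169, CDSN at 0.0985 ± 0.0558 and LOR at 0.00552. TGM1 was above IVL in 8 of 8 libraries and CDSN above LOR in 8 of 8. IVL and SBSN could not be ordered, with IVL higher in 4 of 8 libraries, nor could SBSN and FLG (4 of 8). The steps from FLG to CNFN (6 of 8), CNFN to CALML5 (6 of 8) and CALML5 to CDSN (5 of 8) were smaller than the spread over the libraries.

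No gene of the 8 passed the test between any variant and WT. By edgeR's quasi-likelihood test with Benjamini-Hochberg adjustment over 14834 genes, 0 of the 4 tested genes had an adjusted p under 0.05 in each of the 7 comparisons of groups, and 0% of all tested genes were called in each. At an unadjusted edgeR p under 0.05 the count was again 0 of 4, with 154 to 362 of all tested genes. DESeq2 and limma voom called 0 of 4 as well. A p that misses the threshold does not show that the levels are alike. The intervals that follow give the range of differences that remain possible in a fit without the letter as a term. Their width includes the shift between A and B libraries. In bulk RNA, fewer cells of a differentiated type and less RNA per cell cannot be told apart. CARD14 RNA in the A libraries was at 1126 CPM with WT, 1189 with R820W, 444 with N737H and 499 with I593T. In the B libraries it was at 977, 1409, 1005 and 1394 CPM in the same order. The part of these CARD14 levels in the comparisons of groups was not tested.

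TGM1 averaged 16.3 ± 14.4 CPM with WT (SD, n = 2), 16.9 ± 8.92 with R820W, 7.99 ± 1.91 with N737H and 7.72 ± 1.18 with I593T. The fitted log2 fold change against WT was 0.06 ± 0.62 (SE) for R820W, -1.02 ± 0.63 for N737H and -1.08 ± 0.63 for I593T. The 95% intervals were -1.38 to 1.49, -2.48 to 0.44 and -2.54 to 0.39. The sign of both lower values changed without WT B, where TGM1 was 0.38 for N737H and 0.34 for I593T. That fit had no letter term and set WT A alone against the A and B libraries of each variant. TGM1 was higher in B in every group, so letter and group were mixed in these values. Within the A libraries the TGM1 differences of log2 CPM against WT were 0.79 (R820W), 0.12 (N737H) and 0.17 (I593T), and within the B libraries they were -0.19, -1.49 and -1.62. The TGM1 difference from WT thus had opposite signs in A and B for all 3 variants. Between variants, TGM1 was higher with R820W than with N737H and I593T in both letters. The fitted values were 1.08 ± 0.63 (SE, 95% interval -0.38 to 2.54) against N737H and 1.13 ± 0.63 (-0.33 to 2.59) against I593T, and neither was called.

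FLG averaged 5.39 ± 0.596 CPM with WT, 4.71 ± 1.48 with R820W, 6.92 ± 1.90 with N737H and 6.48 ± 1.54 with I593T (SD, n = 2). Its log2 fold change was -0.20 ± 0.34 (SE) for R820W, 0.36 ± 0.34 for N737H and 0.26 ± 0.34 for I593T, with N737H interval -0.42 to 1.14. FLG was highest in N737H B, where the number of genes with a count was also highest (21059), and the part of that in the FLG value was not tested. Without N737H B the FLG value for N737H was 0.07, in a fit without a letter term that set N737H A alone against both WT libraries. The FLG difference from WT had opposite signs in A and B for all 3 variants: -0.65 and 0.21 for R820W, -0.06 and 0.72 for N737H, and -0.11 and 0.60 for I593T. These differences also share the same WT A and WT B libraries and are not independent.

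IVL, whose promoter holds the TGAGTCA printed earlier, had log2 fold changes of 0.31 ± 0.52 (SE) for R820W, 0.49 ± 0.51 for N737H and 0.50 ± 0.51 for I593T. The IVL interval for N737H was -0.69 to 1.68. SBSN had 0.38 ± 0.47 for R820W, -0.71 ± 0.49 for N737H and 0.16 ± 0.47 for I593T. The SBSN difference between R820W and N737H was 1.09 ± 0.49, with an interval of -0.03 to 2.22. The mean of the 3 variants against WT gave a log2 fold change of -0.06 ± 0.39 for SBSN, 0.14 ± 0.28 for FLG, -0.68 ± 0.49 for TGM1 and 0.44 ± 0.43 for IVL.

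**Figure D3:**
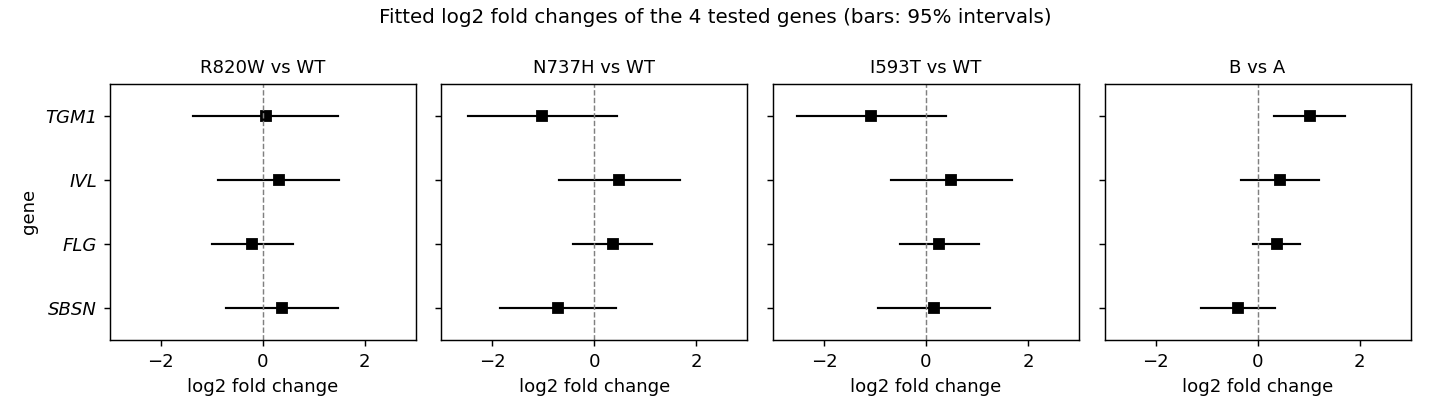
Fitted log2 fold change (horizontal axis) with 95% interval (bars) of TGM1, IVL, FLG and SBSN for each variant against WT and for B against A. Every interval against WT spans 0, and the interval of TGM1 for B against A (0.33 to 1.71) does not.

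The A and B libraries were compared in a fit with group as a term. TGM1 was higher in B than in A in all 4 groups, by 4.34-fold with WT, 2.19-fold with R820W, 1.41-fold with N737H and 1.24-fold with I593T, and the A and B ranges overlapped (6.09 to 10.6 against 8.55 to 26.4 CPM). The fitted log2 difference was 1.02 ± 0.29 (SE; mean 7.56 ± 2.07 CPM in A and 16.9 ± 9.27 in B, SD, n = 4), with an edgeR adjusted p of 0.102. Of 14834 tested genes, 480 (3.24%) were called between the letters, and 0 of these 4 genes were among them. At an unadjusted edgeR p under 0.05 there was 1 of the 4 (TGM1) and 3417 of all tested genes. DESeq2 called TGM1 at an adjusted p of 0.0108, among 1321 genes that it called in all. TGM1 was not called by limma voom (adjusted p 0.0772), which called 557 genes. Being higher in B in all 4 groups is shared by 12% of the 22949 genes with a count.

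CNFN was higher in B in all 4 groups too, with no overlap between A (0.0458 to 0.165 CPM) and B (0.197 to 0.543 CPM), on 10 counts in A and 26 in B; 13% of genes with a count do not overlap between the letters. SBSN was lower in B in all 4 groups, as were 12% of genes with a count, and its log2 difference was -0.38 ± 0.31 (edgeR adjusted p = 0.505). FLG (0.37 ± 0.19, edgeR adjusted p = 0.300) and IVL (0.44 ± 0.33, edgeR adjusted p = 0.453) were each higher in B in 3 of 4 groups. CALML5 had 18 counts in A and 17 in B, CDSN 27 and 17, and LOR 0 and 1. The keratinocyte marker sums of A and B overlapped, and CARD14 was lower in B with WT and higher in B with each variant; the part of either in these values was not tested.

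The rest of the pathway was read from 8 lists of genes, each described by counts and medians. In fits without the letter as a term, no member of any list was called for a variant against WT by edgeR, DESeq2 or limma voom. The other envelope precursors had a median of 16.9 CPM per kb, led by S100A11 at 1542 and ANXA1 at 845 CPM per kb, a calcium-binding protein and an annexin that lie under the membrane. The late cornified envelope (LCE) family had a median of 0.00502 CPM per kb, 9 of 18 genes having no count in any library, and LCE3D led at 1.04 CPM per kb, followed by LCE3E at 0.841. The suprabasal keratins and cadherins had a median of 0.0641 CPM per kb, with KRT13 at 361, KRT4 at 1.43 and KRT10 at 0.999 CPM per kb.

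**Figure D4:**
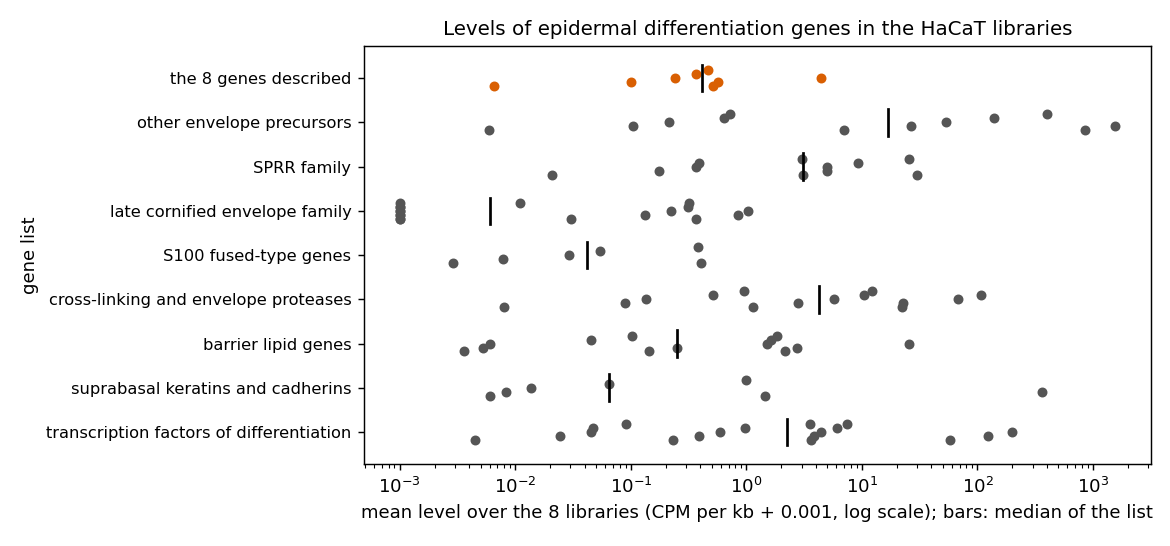
Mean level over the 8 libraries in CPM per kb of merged exons plus 0.001 (horizontal axis, log scale) of the 8 genes (orange) and of the genes in 8 lists (grey); bars are list medians. TGM1, at 4.40 CPM per kb, is the highest orange point, and the LCE family has the lowest median.

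Regulators of the programme were detected, 6 of 18 of them below 1 CPM. EHF stood at 123 CPM per kb and TP63, the p63 factor of basal keratinocytes, at 57.8, with a list median of 2.26 CPM per kb. The cross-linking enzymes and envelope proteases had a median of 4.27 CPM per kb, led by CTSD at 108 and KLK5 at 67.5. The barrier lipid genes had a median of 0.250 CPM per kb, 7 of 13 lying below 1 CPM, and the lipid transporter ABCA12 stood at 1.83 CPM per kb. The S100 fused-type relatives of FLG had a median of 0.0407 CPM per kb, with CRNN at 0.401, TCHH at 0.380, FLG2 at 0.0534 and HRNR at 0.0281. The SPRR family had a median of 3.12 CPM per kb, with SPRR1B at 30.0 and SPRR1A at 25.5.

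Against WT, all 8 tested SPRR genes had lower fitted values with N737H (median log2 fold change -1.36) and with I593T (-0.79), and 0 were called (3 of 8 at an unadjusted edgeR p under 0.05 in each). Of all tested genes, 362 (2.44%) were under that unadjusted edgeR p for N737H and 212 (1.43%) for I593T. With the letter as a block, edgeR called 0 SPRR genes for N737H, and 0 of all tested genes. DESeq2, run in this way after seeing the data, called 3 SPRR genes, among 23 genes called in all. Leaving out 1 library moved the SPRR median for N737H between -1.18 (without WT A) and -2.15 (without N737H A), and for I593T between -0.34 (without WT A) and -1.55 (without I593T A). Fits that left out 1 library, here and in the rest of this paragraph, had no letter term, so the letters were unbalanced in them. With R820W the split was 5 higher and 3 lower. The 4 tested LCE genes were all lower with N737H (median -1.40, and -0.91 without WT A). These LCE genes were low, with means of 0.26 to 0.64 CPM on 43 to 112 counts over the 8 libraries. The medians of all tested genes were -0.03, -0.02 and -0.01 for N737H, I593T and R820W. For the proteases the medians were -0.25 and -0.24 for N737H and I593T, with 10 and 11 of 13 lower, but without WT B they became 0.21 and 0.22. That fit set WT A alone against A and B libraries, and 11 of 13 proteases were higher in B (median 0.47). Letter and group were therefore mixed in the 2 values without WT B. The transcription factors had 11 of 14 lower with N737H (median -0.34), 9 of 14 with I593T (-0.25) and 9 of 14 with R820W (-0.14), where it was 0.02 without WT A. Without WT B the N737H median of these factors was -0.12.

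Between the letters 5 list genes were called, and 480 of all 14834 tested genes (3.24%). The list genes were 1 of 9 tested other envelope precursors, 3 of 8 SPRR genes and 1 of 13 cross-linking enzymes and proteases. In the other lists 0 tested genes were called, out of 4 LCE, 3 S100 fused-type, 8 barrier lipid, 4 suprabasal and 14 transcription factor genes. PI3, a secreted protease inhibitor and envelope precursor, fell by 1.58 on the log2 scale in B (edgeR adjusted p = 0.00287), and without R820W A its adjusted p was 0.0573. SPRR2A fell by 1.64 (edgeR adjusted p = 0.00701) and SPRR2D fell by 1.40 (edgeR adjusted p = 0.0154), with SPRR2E making 3 of 8 tested SPRR genes. The SPRR2A call was lost without R820W A, R820W B or I593T A, and the SPRR2D call without any 1 of these, without I593T B, or in the fit of letter without group. KLK5, a serine protease that acts in shedding of the outer layer, rose by 0.60 (edgeR adjusted p = 0.0398), the call being lost without any 1 library of R820W, N737H or I593T (6 of 8 fits that left out 1 library). TGM1, whose value was 1.02, thus differed in sign from PI3 and the SPRR2 genes in the same comparison.

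Likeness to TGM1 and FLG was sought across the 8 libraries, which share the letters and their depths. Among 9579 genes of at least 5 CPM, CEACAM1 (Pearson r 0.99, Spearman rho 0.93), MUC1 (0.98 and 0.93) and TACC2 (0.97 and 0.95) had the pattern nearest to TGM1, and 85 genes had r above 0.9. FLG was nearest to NSMAF (0.94 and 0.93), NOL9 (0.93 and 1.00) and NR1D2 (0.93 and 0.98), with 15 genes above 0.9. These are descriptions over 8 libraries, with no p. Among the tested members themselves, the correlations ran from -0.56 (SBSN and FLG) to 0.28 (IVL and FLG), and TGM1 and FLG had -0.21.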

How the data were processed

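Per the labels' protocols, RNA of sorted GFP-positive cells was extracted with a mirVana kit and made into low-input NEBNext libraries. The authors deposited 1 table of raw read counts per gene symbol for 8 libraries. The submitters' processing notes name hg19, FastQC, MACS2 and DESeq2 without roles; the aligner, the counter, the annotation and the strand setting were not given in these sources. The 8 genes and the lists were chosen with earlier results of these data known.

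Counts were filtered with filterByExpr (14834 of 28518 genes kept, with 99.9% of counts), normalised by TMM and fitted with edgeR 4.0.16 (quasi-likelihood, R 4.3.3) on all 8 libraries with group means; B against A came from a fit with group and letter. Tests were two-sided, Benjamini-Hochberg adjusted over all genes tested, at 0.05. CPM are from edgeR, and differences within a letter use a prior count of 2. Intervals and floors of counts cover counting error only. All pairs of libraries differed by more than sampling noise (smallest chi-square per gene 6.30). Genes were named by rule: the 8 genes, CARD14, up to 2 called genes and the 2 genes of highest mean CPM per list, and the 3 nearest genes for likeness; CD68, KRT10, TP63, FLG2, HRNR and SPRR2E were named after their values were seen. Some list genes are withheld and not reported here. Alternatives were RLE, other filters, DESeq2 1.42.0, limma voom (3.58.1), a letter block, CARD14 removed, fewer groups, and each library left out. The script was tested on simulated counts.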

Additional observations from a re-analysis of the deposited data

Results flagged for a closer look

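For several of the 8 genes the difference between a variant and WT had opposite signs in the A and in the B libraries. Each such value rests on 1 library per group and letter, and the difference between the letters was not tested. For a given gene the values of the variants all use the same WT A and WT B libraries, so they are not independent. For TGM1 the log2 difference in B minus that in A was -0.98 for R820W, -1.61 for N737H and -1.79 for I593T. For FLG it was 0.86 for R820W, 0.78 for N737H and 0.70 for I593T, the reverse of TGM1 in sign. For IVL it was -1.19 for R820W, and for SBSN 0.42 for I593T.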

How the results depend on the processing

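No member was called in any comparison of groups under any alternative run. Of 532 member values under alternatives, 23 changed sign and 1 passed the threshold: with DESeq2, 1 member (TGM1) was called between the letters, among 1321 genes. The cause of these changes was not tested. Each library was also left out in turn, and in comparisons of groups these fits had no letter term, so the letters were unbalanced. Some of the resulting ranges of log2 fold change kept 1 sign. Between R820W and N737H these were TGM1 (0.41 to 1.53), SBSN (0.81 to 1.31) and FLG (-0.91 to -0.28). Only the ranges that crossed 0 are listed next. Against WT they were -0.072 to 0.90 (IVL), -0.61 to 1.47 (TGM1) and -0.54 to 0.10 (FLG) for R820W; -1.67 to 0.38 (TGM1) for N737H; -1.73 to 0.34 (TGM1), -0.14 to 0.59 (SBSN) and -0.0011 to 0.49 (FLG) for I593T; and -1.34 to 0.73 (TGM1) and -0.36 to 0.37 (SBSN) for the mean of variants. Between R820W and N737H IVL ran from -0.41 to 0.071, and between R820W and I593T IVL from -0.44 to 0.093 and SBSN from -0.057 to 0.44. Between N737H and I593T they were -0.27 to 0.27 (IVL), -0.19 to 0.26 (TGM1) and -0.18 to 0.35 (FLG). That IVL value, -0.0072 as reported, was 0.019 under the stricter filter, 0.0084 with limma voom and 0.0078 with only the groups compared. TGM1 between the letters ran from 0.65 (without WT replicate B) to 1.25, with edgeR adjusted p of 0.0654 to 0.330.

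Genes called between the letters numbered 480, 760 with no filter, 1321 with DESeq2, 1324 with letter alone, and from 0 (without R820W replicate A) to 1069 (without WT replicate A) with 1 library left out. Over the 7 comparisons of groups, where 0 genes were called, DESeq2 called 0 to 3, edgeR with no filter 2 to 11, and DESeq2 with the replicate block, added after seeing the data, 1 to 30. Against WT for N737H, that last fit called 23 genes, with 3 SPRR genes and 1 other envelope precursor among them. No other alternative called a list gene for a variant against WT. Left-out libraries gave at most 3 (without I593T replicate A), and with the replicate block in edgeR 1 gene was called between R820W and N737H. Libraries of the same letter deviated together (correlations 0.31 to 0.41) except WT with N737H (0.024). The main fit left out the letter because no label ties the letters to the experiments, and the block was an alternative. The common coefficient of variation between libraries was 0.262 with group alone and 0.190 with group and letter. The main intervals therefore include the shift between the letters. With the replicate block, 0 members were called in each comparison of groups, and TGM1 was -0.79 for N737H and -0.81 for I593T against WT. CNFN, CDSN, CALML5 and LOR are limited by depth, with at most 13 counts in a library.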
